A study of Mus musculus with 6 samples.

Results

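Cadherins are membrane proteins that join neighbouring cells by binding calcium and a cadherin on the opposite cell. Classical cadherins reach the actin cytoskeleton through catenins, and embryonic stem cells are held together in colonies mainly by Cdh1 (E-cadherin). In the mouse embryo, cells that leave the epiblast for mesoderm or neural tissue exchange Cdh1 for Cdh2 (N-cadherin). Protocadherins are relatives with weaker adhesion, best known from neurons, where the clustered genes give single cells a surface identity.

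The cadherin superfamily genes described here are all gene symbols formed by Cdh and a number, or beginning with Pcdh, which gave 60 of the 33924 symbols in the count table. They comprise 5 type I (classical) cadherins, 13 type II cadherins, 5 other numbered cadherins, 12 non-clustered protocadherins and 25 clustered protocadherins. They lie on 11 chromosomes in the RefSeq annotation of GRCm38.p6, with 28 of them, Cdh2 and every clustered protocadherin among these, on chromosome 18. RefSeq lists 14 alpha, 22 beta and 22 gamma protocadherin symbols, of which 2, 22 and 1 were analysed here. The alpha and gamma genes splice their own first exon to exons that the whole cluster shares, so the counts of Pcdha11 and Pcdhgc5 may hold reads of other genes of their clusters. Of the 50-base stretches of their transcripts, 63.6% and 37.3% also occur in other genes.

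RNA was sequenced from 6 libraries of the mouse embryonic stem cell line E14. In 3 of them the cells were labelled Rif1-KO, for loss of Rif1, whose chromatin-bound product sets the timing of DNA replication, and 3 were labelled control (WT). For both groups the labels give 2i medium, which keeps the cells in naive pluripotency, on 0.1% gelatin, and 4-OHT at 0.1 µM for 2 days with 1 further day without it. The file headers, however, carry TAM in the Rif1-KO libraries alone and 2i in the control libraries alone, so whether the groups shared drug and medium is not settled, and a difference in either cannot be told apart from the Rif1-KO label. How Rif1 was disrupted, and whether the cells are 1 clone, is not given in the sources used here.

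Total counts ran from 9185062 to 10980777 in the Rif1-KO libraries and from 8383632 to 9218036 in the control libraries. Levels are given as CPM, a gene's counts scaled to a common library size (TMM). Rif1 itself stood at 623 ± 35.5 CPM in the Rif1-KO libraries and 677 ± 21.9 CPM in the control libraries (SD, n = 3 each), a log2 fold change of −0.12 ± 0.05 (adjusted p = 0.0509). Counts of whole genes do not reveal a deleted exon, so this value checks the labels neither way, and the groups are called here by their labels. Stem cell markers were read in every library: Pou5f1 averaged 656 ± 33.1 and Nanog 662 ± 12.8 CPM in the Rif1-KO libraries, against 690 ± 32.8 and 612 ± 14.7 CPM in the control libraries. Of 7 tested markers in this list 3 rose (Dppa5a, Klf4 and Nanog), 3 did not pass, Pou5f1 among them (named after its values were seen), and Sox2 fell. Sox2 averaged 469 ± 19.4 CPM in the Rif1-KO libraries and 683 ± 31.8 CPM in the control libraries (adjusted p = 1.78e-08).

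Of the 60 genes, 12 had enough reads to be tested, and 7 of these differed between the groups. Cdh2, Pcdha11 and Cdh24 rose in the Rif1-KO libraries, while Cdh1, Cdh3, Cdh22 and Cdh23 fell. The remaining 5, Cdh4, Cdh13, Pcdh1, Pcdh19 and Pcdhgc5, did not pass. The test was edgeR's quasi-likelihood test, run on 14250 genes, and a gene counts as changed where its Benjamini-Hochberg adjusted p is below 0.05. By this rule 50.9% of all tested genes were called, 26.1% as higher and 24.8% as lower in the Rif1-KO libraries. The share of tested cadherin genes that was called, 58.3%, lies near that background. The groups' libraries did not overlap at 7 of the 12, again near the 57.2% of all tested genes. The median log2 fold change was 0.05 over the 12 genes and 0.003 over all tested genes. Fold changes of at least 2 were called for 3 of the 12, Cdh2, Pcdha11 and Cdh22, where 6.55% of all tested genes had such a call. Nothing is read from that count, since Pcdha11 entered the test through the Rif1-KO libraries alone and Cdh22 through the control libraries alone. Both genes are also among the 7 called and the 7 without overlap, so nothing is read from those shares either.

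**Figure D1:**
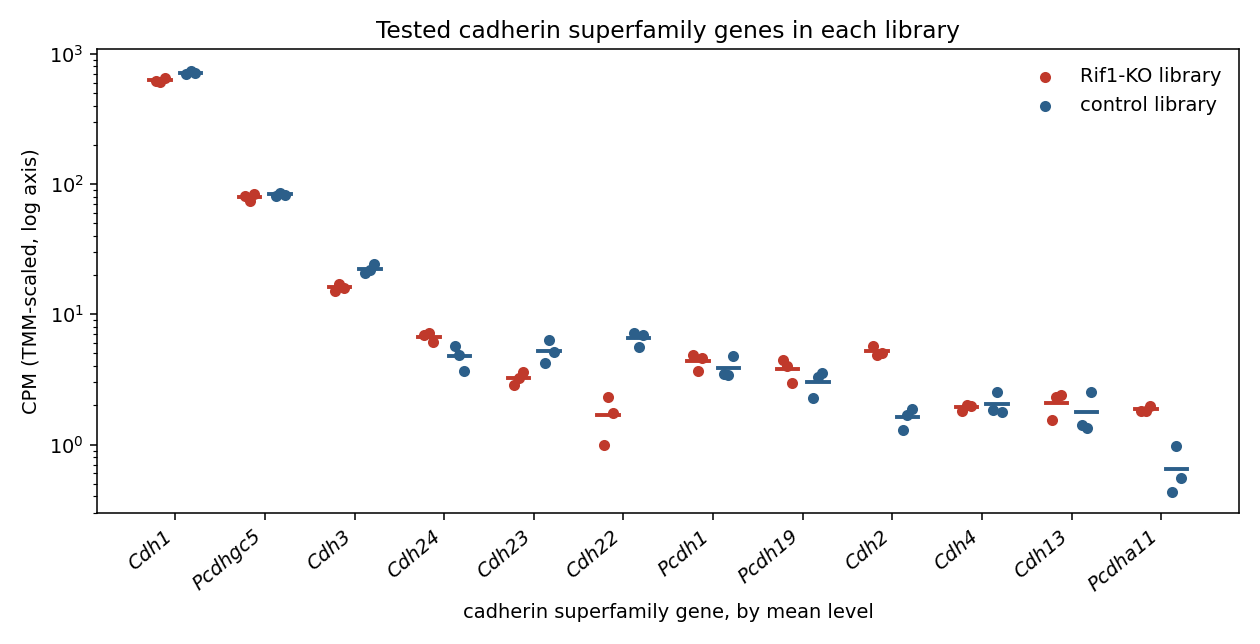
CPM after TMM scaling, on a log axis, of the 12 tested cadherin superfamily genes in each library, ordered by mean level, with a line at each group's mean (n = 3). Cdh1 stands far above the other genes in both groups, and the libraries of the groups are separate for Cdh1, Cdh3, Cdh24, Cdh23, Cdh22, Cdh2 and Pcdha11.

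Cdh1 was the main cadherin of these cells in both groups. Per kilobase of exon, its level was 137 CPM in the Rif1-KO libraries and 157 CPM in the control libraries. Next on the same scale were Pcdhgc5, with 10.4 CPM per kilobase in the Rif1-KO libraries and 10.9 in the control libraries, and Cdh3, with 3.66 in the Rif1-KO libraries and 5.09 in the control libraries. Cdh1 held 82.4% to 82.8% of the CPM summed over all 60 genes in the Rif1-KO libraries and 83.6% to 84.2% in the control libraries. The other tested genes had under 2 CPM per kilobase in both groups.

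Among the type I cadherins, Cdh2 rose and Cdh1 fell, so Cdh2 stood higher relative to Cdh1 in every Rif1-KO library, although Cdh1 stayed far more abundant. Cdh2 was at 5.69, 4.85 and 5.03 CPM in the Rif1-KO libraries, against 1.30, 1.70 and 1.88 CPM in the control libraries. Every Rif1-KO library lay above every control library. These levels rest on 63, 48 and 46 counts in the Rif1-KO libraries and 12, 14 and 17 in the control libraries. The control level was thus not far above the limit for testing, 1.09 CPM. The log2 fold change was 1.68 ± 0.22 (SE; adjusted p = 2.59e-06), or 3.20-fold. In bulk RNA, more cells with Cdh2 and more Cdh2 RNA per cell cannot be told apart.

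Cdh1 was read at 617, 612 and 651 CPM in the Rif1-KO libraries, against 693, 743 and 717 CPM in the control libraries. Its groups did not overlap either, but the difference was small: Cdh1 fell to 627 ± 21.3 CPM in the Rif1-KO libraries, against 718 ± 25 CPM in the control libraries (SD, n = 3 each), a log2 fold change of −0.20 ± 0.05 (adjusted p = 0.00149). For every 1000 Cdh1 counts there were 9.22, 7.93 and 7.73 Cdh2 counts in the Rif1-KO libraries and 1.87, 2.29 and 2.62 in the control libraries. The ratio was thus 3.69-fold higher in the Rif1-KO libraries by the difference of mean log2 ratios, 1.88. The two-sided exact permutation test gave p = 0.1, the smallest that 3 libraries against 3 allow. Taken per exon length, Cdh2 reached 4.38 to 5.23 per 1000 of Cdh1 in the Rif1-KO libraries and 1.06 to 1.49 in the control libraries.

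**Figure D2:**
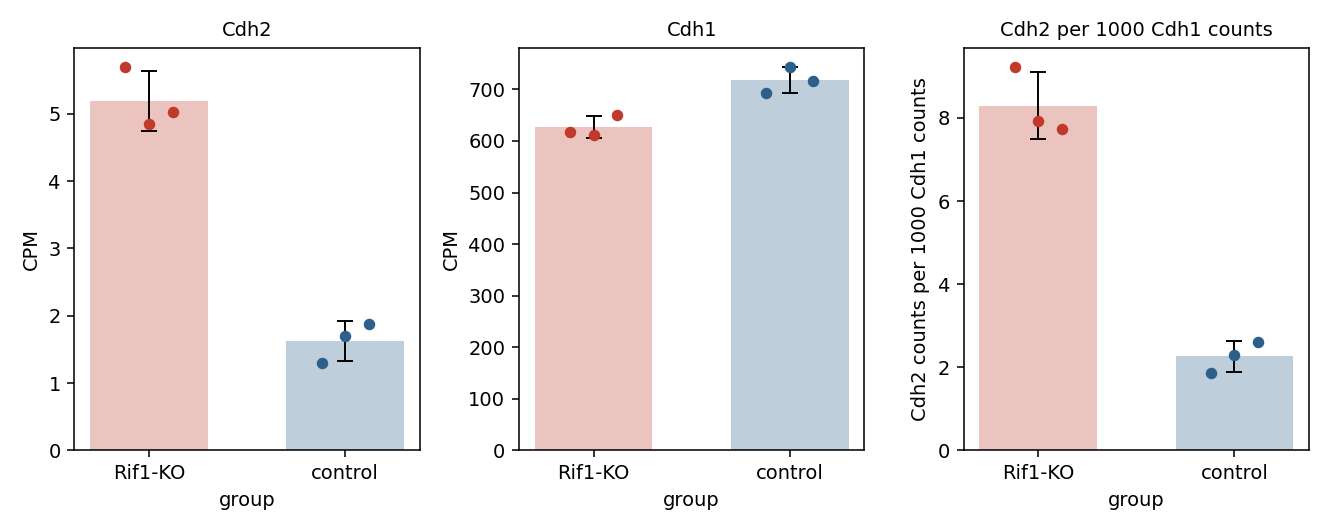
Cdh2 and Cdh1 in CPM, and Cdh2 counts per 1000 Cdh1 counts, with a point for each library and bars with the mean and SD (n = 3). The Rif1-KO libraries lie above all control libraries for Cdh2 and for the ratio, at 7.73 to 9.22 against 1.87 to 2.62, and below them for Cdh1.

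Cdh3, or P-cadherin, a classical cadherin known from placenta and skin that lies on chromosome 8 like Cdh1, also fell. It stood at 15, 17.2 and 16 CPM in the Rif1-KO libraries and at 20.8, 21.9 and 24.3 CPM in the control libraries, with all Rif1-KO values below the lowest control value. The log2 fold change was −0.48 ± 0.10 (adjusted p = 0.000394). Cdh4, or R-cadherin, known from the retina, did not pass, with 1.93 ± 0.111 CPM in the Rif1-KO libraries and 2.05 ± 0.433 CPM in the control libraries. The 95% interval of its log2 fold change ran from −0.62 to 0.46, which leaves room for a moderate change in either direction. Cdh15, the cadherin of muscle cells, had 3 counts over the Rif1-KO libraries and 4 over the control libraries and was not tested.

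Of 13 type II cadherins, a family found widely in the nervous system, 2 were tested, and they moved in opposite directions. Cdh22, known from pituitary and brain, was at 0.994, 2.32 and 1.75 CPM in the Rif1-KO libraries and at 7.14, 5.59 and 6.97 CPM in the control libraries. The groups were well apart. Its log2 fold change of −1.98 ± 0.23 (adjusted p = 7.46e-07) makes it 3.94-fold lower in the Rif1-KO libraries, and it was the tested cadherin gene with the largest change in size. Only 2 of the Rif1-KO libraries passed the filter's limit of 1.09 CPM for Cdh22, so it entered the test through the control libraries. Cdh24 was at 6.96, 7.17 and 6.12 CPM in the Rif1-KO libraries and at 5.73, 4.86 and 3.65 CPM in the control libraries. It rose by 0.51 ± 0.17 on the log2 scale (adjusted p = 0.0183), but the lowest Rif1-KO value lay close to the highest control value. The call for Cdh24 was lost with DESeq2 (adjusted p = 0.0723) and without Rif1-KO replicate 1 (0.0538), Rif1-KO replicate 2 (0.0621) or control replicate 3 (0.128, log2 fold change 0.35).

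Promoter sequences were looked up in RefSeq for the genes that changed, since the 2 type II cadherins moved apart. The table, of build GRCm38.p6, holds 250 bases before and 50 after the start of transcription and had an entry for 22 of the 60 genes, 3 of them called: Cdh22, Cdh24 and Cdh23. Capitals mark the GC box, GGGCGG on either strand, the site of SP1-like factors. All 3 genes are on the minus strand and are printed 5′ to 3′ along the gene, Cdh22 from chr2:165234688-165234987, Cdh24 from chr14:54641315-54641614 and Cdh23 from chr10:60696441-60696740.
Cdh22: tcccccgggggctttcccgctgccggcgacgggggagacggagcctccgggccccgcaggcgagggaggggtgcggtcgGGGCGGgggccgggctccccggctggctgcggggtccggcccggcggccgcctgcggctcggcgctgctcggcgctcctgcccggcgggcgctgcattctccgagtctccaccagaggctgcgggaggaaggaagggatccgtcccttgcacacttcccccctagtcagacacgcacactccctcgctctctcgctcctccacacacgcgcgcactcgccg
Cdh24: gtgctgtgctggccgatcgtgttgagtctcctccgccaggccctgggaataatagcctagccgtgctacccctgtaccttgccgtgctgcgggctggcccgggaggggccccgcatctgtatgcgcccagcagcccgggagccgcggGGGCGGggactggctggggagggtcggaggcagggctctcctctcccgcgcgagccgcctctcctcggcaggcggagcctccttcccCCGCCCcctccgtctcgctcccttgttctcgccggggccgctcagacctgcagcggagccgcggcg
Cdh23: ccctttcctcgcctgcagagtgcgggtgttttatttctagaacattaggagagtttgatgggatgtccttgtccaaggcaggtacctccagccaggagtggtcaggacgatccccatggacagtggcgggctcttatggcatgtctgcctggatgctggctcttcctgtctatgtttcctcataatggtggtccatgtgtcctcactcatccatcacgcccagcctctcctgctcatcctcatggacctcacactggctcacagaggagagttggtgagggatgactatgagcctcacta
The GC box occurred 1 time in the Cdh22 window, 2 times in that of Cdh24 and 0 times in that of Cdh23, and 35.7% of all 32851 promoter windows of this length held it. CG dinucleotides numbered 38, 30 and 5 in the windows of Cdh22, Cdh24 and Cdh23, against a median of 7 over all windows. Cdh22 and Cdh24, which moved in opposite directions, thus both have windows rich in CG. The E-box CAGGTG, on either strand the motif of SNAI and ZEB repressors, was in none of the 3 windows and in 20.2% of all. The wider E-box CANNTG, which includes it, was found 0 times for Cdh22 and 1 time each for Cdh24 and Cdh23, against 72.3% of all windows with it. These matches describe the letters of these windows alone.

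The 5 other numbered cadherins differ in build from the classical ones. Cdh23, which forms the tip links of inner ear hair cells, fell: it was at 2.89, 3.23 and 3.61 CPM in the Rif1-KO libraries and at 4.22, 6.32 and 5.09 CPM in the control libraries. The groups did not overlap, and the log2 fold change was −0.68 ± 0.20 (adjusted p = 0.00699). Without control replicate 2, the highest control value, Cdh23 missed the threshold, with −0.53 and an adjusted p of 0.0508. Its partner in the tip link, Pcdh15, had 4 counts over the Rif1-KO libraries and none in the control libraries. Cdh13, or T-cadherin, which has a lipid anchor in place of a cytoplasmic tail, did not pass, with 1.54, 2.32 and 2.41 CPM in the Rif1-KO libraries and 1.41, 1.34 and 2.54 CPM in the control libraries. Its groups overlapped, and the interval of its log2 fold change ran from −0.41 to 0.84.

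Among non-clustered protocadherins, 2 of 12 were tested and neither passed. Pcdh1 averaged 4.37 ± 0.651 CPM in the Rif1-KO libraries and 3.87 ± 0.766 CPM in the control libraries (SD, n = 3 each), with a log2 fold change of 0.17 ± 0.20. Pcdh19, known from a human epilepsy, averaged 3.81 ± 0.765 CPM in the Rif1-KO libraries and 3.03 ± 0.671 CPM in the control libraries, with 0.35 ± 0.22 and an adjusted p of 0.201. Its interval reached from −0.12 to 0.81, so a change of up to about that size in the Rif1-KO libraries could have been missed.

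The clustered protocadherins were read almost wholly under a single symbol, and that symbol stayed near its control level. Pcdhgc5 was at 81.1, 73.9 and 83.2 CPM in the Rif1-KO libraries and at 81.5, 85.4 and 82.9 CPM in the control libraries. These groups overlap, and the log2 fold change of −0.07 ± 0.06 (adjusted p = 0.328) had an interval from −0.19 to 0.05. Pcdhgc5 made up 95.2% to 95.8% of the clustered protocadherin CPM in the Rif1-KO libraries and 97.6% to 98.6% in the control libraries. Pcdha11, of the alpha cluster, was at 1.81, 1.82 and 1.97 CPM in the Rif1-KO libraries and at 0.432, 0.972 and 0.553 CPM in the control libraries. It rose by 1.52 ± 0.35 on the log2 scale (adjusted p = 0.00109). No control library passed the filter's limit for Pcdha11, so it entered the test through its reads in the Rif1-KO libraries alone.

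**Figure D3:**
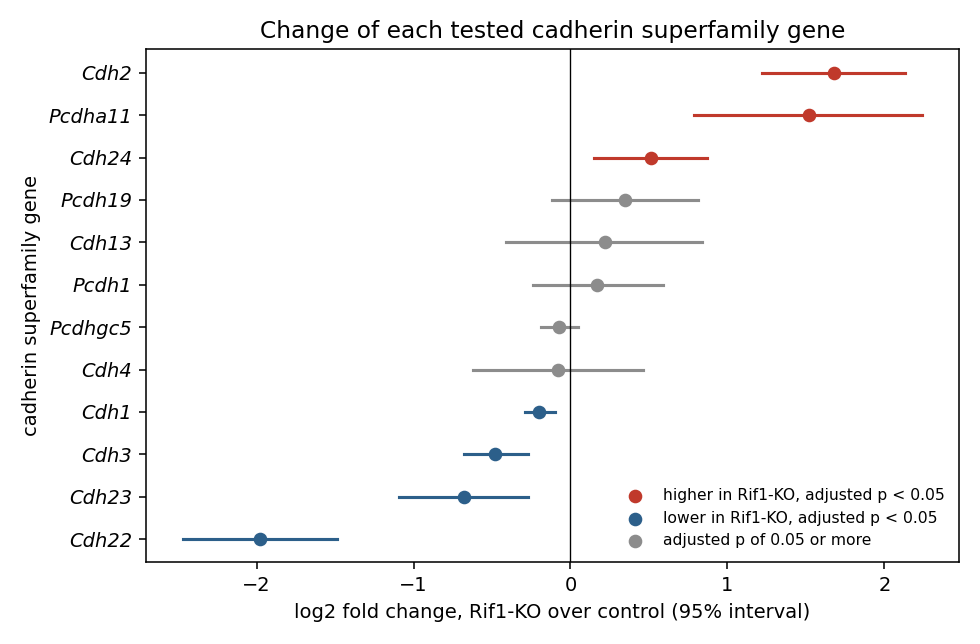
Log2 fold change, Rif1-KO over control, with its 95% interval from edgeR, for the 12 tested cadherin superfamily genes. Red marks genes called higher, blue genes called lower and grey those that did not pass; Cdh22 at −1.98 and Cdh2 at 1.68 lie at the ends, and the interval of Pcdhgc5 is the narrowest of the grey ones.

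The other 48 genes had too few reads to be tested, but together they were read more often in the Rif1-KO libraries. Their counts summed to 58, 48 and 55 in the Rif1-KO libraries, against 19, 22 and 28 in the control libraries. Per library size this is a ratio of 2.06 (exact 95% interval 1.54 to 2.77, counting error only). Of the 40 with any count, 32 had more counts per library size in the Rif1-KO libraries and 8 had fewer. Over the 9727 other untested genes with a count, 56.7% had more in the Rif1-KO libraries and the summed counts had a ratio of 1.18. Those genes were not matched to the cadherins for level. The number of cadherin superfamily genes with at least 1 count was 38, 33 and 39 in the Rif1-KO libraries and 23, 24 and 23 in the control libraries, while 60.6% to 61.7% of the whole table was read in the Rif1-KO libraries and 57.9% to 58.8% in the control libraries.

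By subfamily, the 22 beta protocadherins summed to 19, 18 and 17 counts in the Rif1-KO libraries and 7, 9 and 9 in the control libraries, a ratio of 1.90 (1.16 to 3.19). Pcdhb22, with the most counts, had 6, 7 and 2 in the Rif1-KO libraries and 4, 5 and 4 in the control libraries. Without it the other beta genes had 39 counts over the Rif1-KO libraries and 12 over the control libraries, a ratio of 2.86 (1.47 to 6.01). Pcdhb22 was set apart after its values were seen, and this interval does not allow for that choice. The other untested genes, not matched for level, had a ratio of 1.18. Pcdhb2 and Pcdhb14 were read in every Rif1-KO library and in no control library, with 4 and 5 counts in all. How often other untested genes show this pattern was not counted, so nothing is read from it. Of the 17 beta genes with a count, 13 had more per library size in the Rif1-KO libraries, where 56.7% of other untested genes did. The 4 with fewer include Pcdhb5 and Pcdhb11, each with 1 control count and 0 in the Rif1-KO libraries. Single genes too low to test are named here after their values were seen.

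The 10 untested non-clustered protocadherins summed to 15, 12 and 12 counts in the Rif1-KO libraries and 6, 0 and 5 in the control libraries. This is a ratio of 3.12 (1.57 to 6.76, counting error only, as for the intervals below). Untested genes outside the cadherin superfamily, not matched for level, had a ratio of 1.18, which stands beside each ratio of this paragraph. Pcdh8, a protocadherin of paraxial mesoderm and brain, gave 15 counts over the Rif1-KO libraries and 7 over the control libraries. Pcdh9 had 6 counts, all in Rif1-KO replicate 1, and Pcdh10 and Pcdh18 had 3 counts each in the Rif1-KO libraries and 0 in the control libraries. Pcdh12 alone went the other way, with 0 counts in the Rif1-KO libraries and 2 in control replicate 1. The 11 untested type II cadherins summed to 20, 14 and 21 counts in the Rif1-KO libraries and 4, 11 and 9 in the control libraries, a ratio of 2.02 (1.23 to 3.41). Cdh18 contributed 19 counts over the Rif1-KO libraries and 11 over the control libraries. Cdh11, known from bone-forming and mesenchymal cells, had 8 over the Rif1-KO libraries and 4 over the control libraries. Cdh5, the cadherin of blood vessel walls, had 1 count over the Rif1-KO libraries and 0 over the control libraries. For the 3 untested other cadherins, Cdh16, Cdh17 and Cdh26, the ratio of 1.23 had an interval from 0.337 to 4.93, so no difference was detectable at this depth. No reads were counted for 8 genes, Cdh17, Cdh19, Pcdh11x, Pcdhb1, Pcdhb4, Pcdhb8, Pcdhb9 and Pcdhb10, which allows up to 3 counts a library, or 0.271 to 0.328 CPM in the Rif1-KO libraries and 0.324 to 0.364 CPM in the control libraries.

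**Figure D4:**
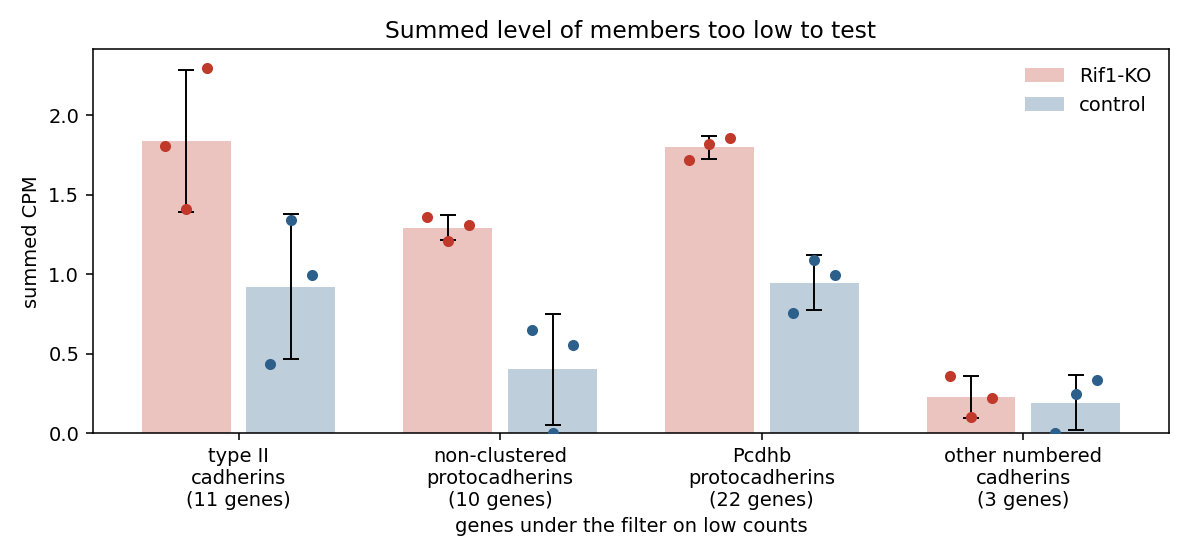
Summed CPM of the genes too low to test, by subfamily, with a point for each library and bars with the mean and SD (n = 3). The Rif1-KO libraries lie above the control libraries for the type II cadherins, the non-clustered protocadherins and the Pcdhb genes, and the groups overlap for the 3 other numbered cadherins.

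Genes for catenins and adherens junction linkers, which attach cadherins to the cytoskeleton, moved in both directions. Of the 16 with enough reads, 6 rose and 4 fell, while 6 did not pass (median log2 fold change 0.05). The share called, 62.5%, is near the 50.9% of all tested genes. Jup, or plakoglobin, averaged 274 ± 2.16 CPM in the Rif1-KO libraries and 162 ± 6.95 CPM in the control libraries (SD, n = 3 each; log2 fold change 0.75 ± 0.05, adjusted p = 6.43e-11). Vcl, which encodes the actin linker vinculin, rose by 0.75 ± 0.05 on the log2 scale, Ctnnd1, which encodes p120 catenin, by 0.59 ± 0.04, and Ctnna1, which encodes alpha-catenin, by 0.43 ± 0.05. The products of Jup and Ctnnd1 bind the tail of Cdh1, as does that of Ctnnb1, which rose by 0.25 ± 0.05. The 4 that fell were Ctnnal1 and Pvrl1, each by 0.24 on the log2 scale, and the p120 relatives Pkp4 and Arvcf, by 0.17 and 0.15. Ctnnb1 and the 4 that fell were named after their values were seen.

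All 8 tested desmosome genes rose, where 26.1% of all tested genes were called higher. Their median log2 fold change was 0.68, against 0.003 over all tested genes. Dsc3 entered the test through the Rif1-KO libraries alone, with 0.442 to 0.972 CPM in the control libraries, and the other 7 passed the filter's limit in every library. Desmosomes are spot junctions of epithelia built from their own cadherins, the desmogleins and desmocollins. Perp, a desmosomal membrane protein gene, averaged 30.6 ± 3.49 CPM in the Rif1-KO libraries and 12.6 ± 2.20 CPM in the control libraries (log2 fold change 1.29 ± 0.12, adjusted p = 1.89e-08). Pkp2 and Pkp3, whose products are plaque proteins, rose by 0.69 ± 0.07 and 0.67 ± 0.11 on the log2 scale, and Jup, which serves both kinds of junction, is on this list too. The desmosomal cadherins Dsg2, Dsc2 and Dsc3, named after their values were seen, rose by 0.18 ± 0.05, 0.49 ± 0.10 and 1.97 ± 0.35. Of the 4 genes not tested, Dsg1a and Dsc1 had no count in any library.

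Cadherin repeat genes with other names moved in both directions. Among the 10 with enough reads 4 rose and 2 fell, and 4 did not pass (median 0.14), so 60.0% were called, near the 50.9% of all tested genes. Ret, named after its values were seen, is among the 4 that rose. It passed the filter's limit in 3 Rif1-KO libraries but only 2 control libraries. Celsr1, a planar polarity receptor gene, fell to 92.9 ± 0.994 CPM in the Rif1-KO libraries, against 138 ± 5.73 CPM in the control libraries (adjusted p = 9.31e-09). Cdhr1, known from photoreceptors, averaged 61.9 ± 3.44 CPM in the Rif1-KO libraries and 32.5 ± 0.674 CPM in the control libraries. Clstn3, a calsyntenin gene, rose by 0.56 ± 0.11 and Fat1, of a giant protocadherin, by 0.25 ± 0.05 on the log2 scale.

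Repressors and mesenchymal switch factors gave 4 that rose, 1 that fell and 3 that did not pass, of 8 tested (median 0.20). Of epithelial regulators, 5 rose, none fell and 4 did not pass, of 9 tested (median 0.18). The shares called in either direction, 62.5% and 55.6%, are near the 50.9% of all tested genes. By direction, 26.1% of all tested genes were called higher and 24.8% lower. The called epithelial regulators all rose, but both lists are short and were not tested as sets. Snai1, a direct repressor of Cdh1, averaged 3.06 ± 0.673 CPM in the Rif1-KO libraries and 1.05 ± 0.482 CPM in the control libraries (log2 fold change 1.52 ± 0.31, adjusted p = 0.000388), and only 1 control library passed the filter's limit for it. Klf8 and Twist1 rose by 0.33 ± 0.06 and 0.71 ± 0.22, and Tcf3, whose E2A products bind E-boxes, fell by 0.46 ± 0.05 on the log2 scale. Zeb2, named after its values were seen, also rose, by 1.11 ± 0.35, but entered the test through the Rif1-KO libraries alone. It was at 0.541 to 0.729 CPM in the control libraries. Twist2 and Prrx1 had no count in any library. Grhl2, an activator of Cdh1, averaged 43.9 ± 1.53 CPM in the Rif1-KO libraries and 14.4 ± 1.71 CPM in the control libraries, and Epcam, Grhl3 and Klf4 rose by 0.32 ± 0.06, 0.21 ± 0.06 and 0.18 ± 0.04 on the log2 scale.

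**Figure D5:**
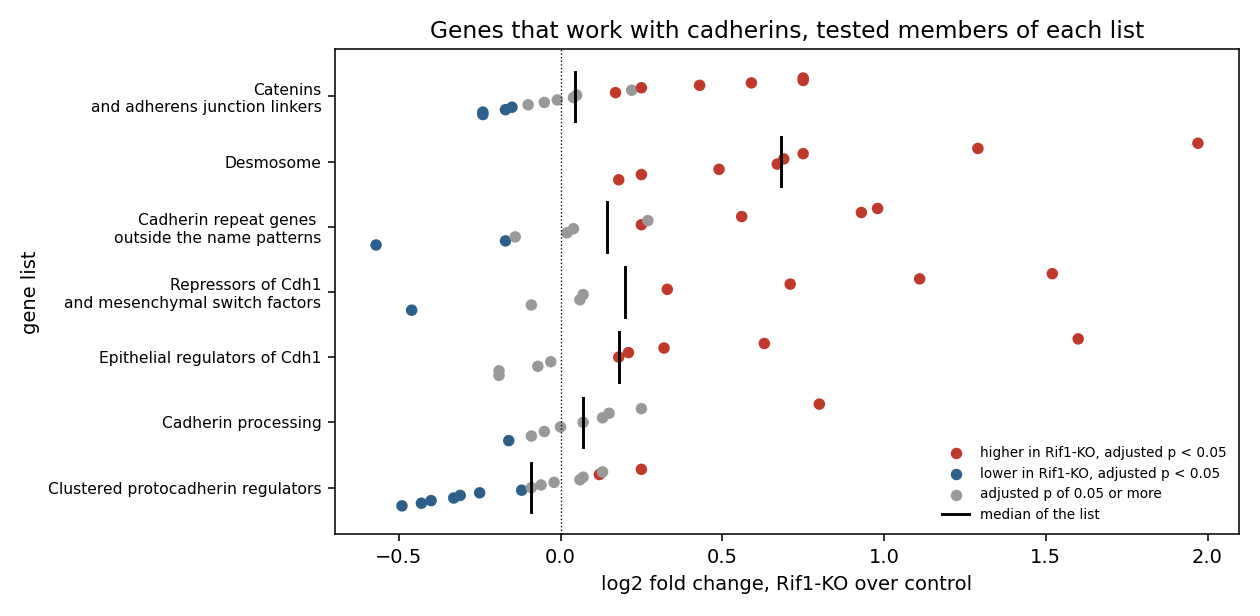
Log2 fold changes, Rif1-KO over control, of tested genes in 7 lists of genes that work with cadherins, with a bar at each list's median. All 8 desmosome genes lie above 0 (median 0.68), whereas the other lists hold genes on either side.

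Cdh2 and several low type II cadherins and protocadherins are also markers of differentiating cells, so markers of such cells are given beside them. Over all tested genes 26.1% were called higher and 24.8% lower. Of 5 tested neuroectoderm markers, 3 rose (Nes, Zic1 and Sox11) and 2 fell, among them Ncam1. Zic1 entered the test through the Rif1-KO libraries alone, with 0.364 to 0.996 CPM in the control libraries. The summed level of the 6 in the table ran from 161 to 166 CPM in the Rif1-KO libraries and from 133 to 153 CPM in the control libraries. Most of this sum came from 2 genes that moved in opposite directions. Nes averaged 99.8 CPM in the Rif1-KO libraries and 46.2 CPM in the control libraries, and Ncam1 averaged 46.6 and 85.4 CPM. For mesoderm and primitive streak markers, 2 of 5 tested genes rose (Mesp2 and Kdr), Gsc fell, and the sums overlapped, at 21.3 to 23.9 CPM in the Rif1-KO libraries and 22.9 to 26.6 CPM in the control libraries. The defining streak genes T, Mixl1 and Mesp1 were too low to test.

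Of 7 tested primitive endoderm markers, 6 rose, Dab2, Sparc, Sox17 and Pdgfra foremost, with sums of 888 to 921 CPM in the Rif1-KO libraries and 627 to 636 CPM in the control libraries. Sparc made up most of the difference in the sums. It averaged 516 ± 9.59 CPM in the Rif1-KO libraries and 269 ± 10 CPM in the control libraries. Of 5 tested trophectoderm markers, 4 rose (Krt8, Krt18, Lgals3 and Tead4), while Eomes, named after its values were seen, did not pass. The sums were 275 to 285 CPM in the Rif1-KO libraries and 137 to 142 CPM in the control libraries. Cdx2 was at 0 in every library, and Elf5 and Gata3 were too low to test. Sox17 entered the test through the Rif1-KO libraries alone, with 0.442 to 0.541 CPM in the control libraries. Fibroblast markers gave 2 that fell, Thy1 and Vim, of 3 tested, with sums of 177 to 185 CPM in the Rif1-KO libraries and 214 to 220 CPM in the control libraries. For endothelium, Tek and Kdr rose and Pecam1, which stem cells also express, fell, with sums of 165 to 185 CPM in the Rif1-KO libraries and 223 to 233 CPM in the control libraries. The part of such cells in the cadherin results was not tested.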

How the data were processed

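For each library the authors deposited a table of unnormalized read counts by gene symbol. The submitters' processing notes name STAR, featureCounts 1.6.2 and the build mm9. Annotation version, strand setting and the rule for multi-mapping reads are not given there, so counts of near-identical or overlapping genes are uncertain. From these counts, CPM and tests were computed with edgeR 4.0.16 in R 4.3.3: filterByExpr, which keeps genes at 1.09 CPM or more in at least 3 libraries, TMM scaling, and the quasi-likelihood test (group alone in the model), with Benjamini-Hochberg adjustment over 14250 genes. Errors of fold changes are standard errors of that test. The script was tested on simulated data.

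Levels per kilobase use exon lengths of GENCODE M21 (GRCm38), another build than the authors', as approximate lengths. Count ratios have exact conditional 95% intervals (Clopper-Pearson). These intervals, and the floor of 3 counts, hold counting error alone, because PCR copies cannot be recognised. Separate cultures are not stated for the replicates, so p-values reflect the spread of these libraries, which may be technical. No library duplicated another of its group (chi-square per degree of freedom 1.29 to 4.55).

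The cadherin genes and all other lists were chosen with earlier results of these data known. Every tested cadherin gene is named. Of each other list, up to 4 called genes are named in order of adjusted p, and any further tested gene with a remark that it was chosen later. Genes of those lists that were too low to test are named without that remark. Listed symbols outside the table are not analysed here. Alternatives were other scalings and filters, DESeq2 1.42.0, limma-voom (limma 3.58.1), a replicate block, an offset for GC content and length (known for 12695 tested genes), and leaving out each library.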

Additional observations from a re-analysis of the deposited data

How the results depend on the processing

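Across 14 alternatives the number of cadherin superfamily genes called higher in the Rif1-KO libraries was 2 or 3 and the number called lower 3 or 4. Cdh1, Cdh2, Cdh3, Cdh22 and Pcdha11 passed in all 14, with log2 fold changes of −0.22 to −0.17, 1.53 to 1.80, −0.53 to −0.41, −2.29 to −1.68 and 1.29 to 1.89; Cdh24 passed in 10 (adjusted p 0.00585 to 0.128) and Cdh23 in 13. Cdh4, which was never called, turned to 0.09 without control replicate 2 and ran from −0.18 to 0.09 when each library was left out. The log2 difference of the Cdh2 to Cdh1 ratio ran from 1.75 to 2.00 when each library was left out, where 2 libraries against 3 cannot give an exact p under 0.2. Rif1 passed in 8 of 14: it was −0.12 with RLE size factors, upper-quartile scaling, no filter on low counts, limma-voom and the replicate block (adjusted p 0.0227 to 0.0453), −0.27 after correction for GC content and length (adjusted p 2.34e-05), and −0.17 to −0.09 when each library was left out; the cause was not tested. Libraries with the same replicate number did not deviate together (correlations 0.0793, −0.0646 and 0.0461, against −0.161 to 0.116 for unlike numbers). With 3 libraries in each group, this check cannot settle whether the numbers pair them. The replicate block gave 3779 genes higher and 3607 lower, against 3722 and 3529 without it, and changed no cadherin call. Depth limits the 48 untested genes to summed counts.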

Other observations

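Of 9 tested genes that process cadherins 22.2% were called, where 50.9% of all tested genes were. Psen2, a catalytic subunit gene of gamma-secretase, which cuts cadherins within the membrane, rose to 45.1 ± 1.94 CPM in the Rif1-KO libraries, against 26.0 ± 2.20 CPM in the control libraries (SD, n = 3 each; adjusted p = 5.17e-08). Adam17, a shedding protease gene, fell by 0.16 ± 0.06 on the log2 scale (adjusted p = 0.0369). The other 7 did not pass, Furin and Adam10 among them, which were named after their values were seen (median of the list 0.07).

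Of 15 tested regulators of the protocadherin clusters, 7 fell, 2 rose and 6 did not pass (median −0.09). The share called, 60.0%, is near the 50.9% of all tested genes, of which 24.8% were called lower and 26.1% higher. Dnmt1, which maintains DNA methylation, averaged 545 ± 17.1 CPM in the Rif1-KO libraries and 764 ± 23.3 CPM in the control libraries (adjusted p = 3.77e-08). Rest, a repressor of neuronal genes, fell by 0.33 ± 0.04 on the log2 scale, Smc1a, of the cohesin ring, by 0.40 ± 0.06 and Dnmt3b, a de novo methylation enzyme gene, by 0.43 ± 0.07. The cohesin genes Stag2 and Rad21 rose by 0.25 ± 0.05 and 0.12 ± 0.04. Smchd1, a repressor of the clusters, named after its values were seen like Stag2 and Rad21, did not pass, with 157 ± 6.75 CPM in the Rif1-KO libraries and 150 ± 3.98 CPM in the control libraries. Whether these changes bear on Pcdha11 or the Pcdhb genes was not tested.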
